A study of Mus musculus with 4 samples.

Results

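The 91 genes described here encode the factors that start, elongate and regulate protein synthesis and the enzymes that charge transfer RNAs with amino acids. They were taken from the 11993 genes of the deposited table by symbol: every name that begins with Eif1 to Eif6, Eef1 or Eef2, every synthetase name of a single amino acid letter followed by ars or ars2, and Eprs, Farsa and Farsb. By role they comprised 33 initiation factors, 12 regulators (kinases of eIF2, subunits of eIF2B and proteins that bind eIF4E), 7 elongation factors with eIF5A and the kinase of eEF2, 20 cytosolic and 16 mitochondrial synthetases, and 3 genes with other roles. Open chromatin was assayed by ATAC-seq, where the transposase Tn5 cuts and tags accessible DNA, in nuclei of frozen subcutaneous white adipose tissue of wild-type mice. There were 4 libraries, 2 from males and 2 from females, called male 1, male 2, female 1 and female 2. The sources used here give no strain, age, diet or treatment, nor whether the libraries of one sex represent different animals, and the spread behind each p-value may be technical. The comparison named by the design is that of the sexes.

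Initiation factors bring the initiator transfer RNA and the capped messenger RNA to the small ribosomal subunit, and elongation factors deliver charged transfer RNAs and move the ribosome along the message. Under amino acid shortage, viral infection, haem shortage or stress of the endoplasmic reticulum, separate kinases phosphorylate eIF2 and slow initiation, while the transcription factor ATF4 induces amino acid enzymes and several cytosolic synthetases through C/EBP-ATF response elements. In adipose tissue, insulin acts on initiation largely through mTOR, which phosphorylates the proteins that hold back the cap-binding factor eIF4E.

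The open chromatin of these genes was concentrated at their starts. The deposited table links each gene to merged regions, which are stretches covered by a peak in at least 1 library, and 84 of the 91 genes (92.3%) had such a region with a summit within 1000 bp of their start, against 69.7% of all genes. The exceptions were Eif2ak1, Eif3g, Eif4e, Eif4e1b, Eif4ebp3, Eif5a2 and Iars2, of which Eif4e, the cap-binding factor, missed the distance with a summit at 1009 bp. The median absolute distance of the nearest summit was 42 bp over the 91 genes, against 109 bp over all genes of the table. Both medians include genes without a region at the start. For 54 of the 84 genes with such a region the nearest summit lay upstream. Widths did not stand out, with a median of 242 bp for the 90 regions at these starts and 244 bp for the 7797 regions at all starts.

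**Figure D1:**
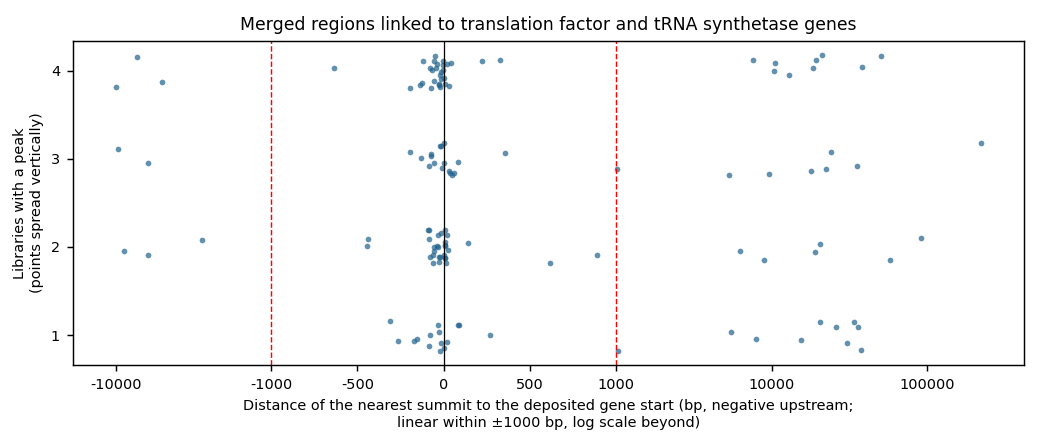
Merged regions linked to translation factor and tRNA synthetase genes, by the distance of their nearest summit from the deposited gene start (x axis, bp, negative upstream, linear within 1000 bp and logarithmic beyond) and by the number of libraries with a peak (y axis, points spread vertically). Dashed lines mark 1000 bp on each side of the start, and most of the points lie between them and close to 0.

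Promoter windows of RefSeq (GRCm38.p6, the assembly that mm10 also names, 250 bases before to 50 after each annotated start) were held for 69 of the 91 genes, in 85 windows. Of these windows 71, of 65 genes, overlapped a region linked to the gene (83.5%). Of all 32851 windows, 7762 (23.6%) overlapped any merged region, linked to the gene or not, and are called open. These shares cannot be compared directly, because the 91 genes came from a table of genes with a linked peak. The whole set of windows was not chosen in this way. The windows below are those of the 5 cytosolic synthetase genes with a C/EBP-ATF response element, searched as TGATGNAA on both strands, which are shown because the 5 of the 71 open windows with a match all belonged to this class of enzyme. Capitals mark the matches, and each window reads 5′ to 3′ on the strand of its gene.
Aars (chr8:111033592-111033891, plus strand): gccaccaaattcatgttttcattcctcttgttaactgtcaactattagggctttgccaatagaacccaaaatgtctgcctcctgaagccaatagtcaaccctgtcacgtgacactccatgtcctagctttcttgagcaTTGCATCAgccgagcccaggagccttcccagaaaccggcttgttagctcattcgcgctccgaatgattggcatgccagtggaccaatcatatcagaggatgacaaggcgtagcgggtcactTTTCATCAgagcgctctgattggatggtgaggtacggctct
Gars (chr6:55037751-55038050, plus strand): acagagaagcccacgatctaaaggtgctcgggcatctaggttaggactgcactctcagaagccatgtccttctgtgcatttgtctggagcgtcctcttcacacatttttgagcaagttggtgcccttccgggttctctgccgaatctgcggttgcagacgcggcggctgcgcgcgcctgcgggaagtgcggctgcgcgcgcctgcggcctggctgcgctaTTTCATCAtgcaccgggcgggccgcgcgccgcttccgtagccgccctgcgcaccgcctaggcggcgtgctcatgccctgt
Iars (chr13:49681880-49682179, plus strand): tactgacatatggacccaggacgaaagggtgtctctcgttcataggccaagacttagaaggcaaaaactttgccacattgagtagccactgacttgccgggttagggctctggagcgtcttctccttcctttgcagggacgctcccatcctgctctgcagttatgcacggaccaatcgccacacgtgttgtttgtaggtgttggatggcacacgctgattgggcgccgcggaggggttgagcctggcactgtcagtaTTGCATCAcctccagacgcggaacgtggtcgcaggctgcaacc
Tars (chr15:11399609-11399908, minus strand): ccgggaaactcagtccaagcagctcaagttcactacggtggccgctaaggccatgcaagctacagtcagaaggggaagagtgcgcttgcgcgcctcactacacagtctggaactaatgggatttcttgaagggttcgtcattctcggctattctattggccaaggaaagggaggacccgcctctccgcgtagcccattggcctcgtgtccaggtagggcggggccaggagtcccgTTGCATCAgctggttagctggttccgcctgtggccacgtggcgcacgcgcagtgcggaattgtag
Yars (chr4:129189653-129189952, plus strand): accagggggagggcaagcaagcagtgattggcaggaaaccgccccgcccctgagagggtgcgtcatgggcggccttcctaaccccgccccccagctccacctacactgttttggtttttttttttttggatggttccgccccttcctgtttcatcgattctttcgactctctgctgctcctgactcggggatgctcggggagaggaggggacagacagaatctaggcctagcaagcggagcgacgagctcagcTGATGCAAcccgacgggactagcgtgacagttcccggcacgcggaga
The enzymes charge alanine, glycine, isoleucine, threonine and tyrosine. In Aars there were 2 matches, which began 112 bases before and 9 bases after the RefSeq start. The match of Gars began 30 bases before the start and that of Tars 15 bases before it. The matches of Iars and Yars began 7 and 3 bases after it, and that of Yars lay just outside the linked region whereas the others lay inside theirs. The element was held by 5 of the 13 open windows of cytosolic synthetase genes and by 0 of the 13 of mitochondrial ones, and by 7.0% of the 71 windows, 1.5% of all 7762 open windows and 4.0% of all windows. A match is a stretch of letters and does not show that a factor was bound.

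A further pair of windows belongs to the genes at the ends of the comparison of the sexes, Eif2ak2 with the lowest difference of the 91 genes and Eif2s2 with the highest. In the window of Eif2ak2 the capitals mark an interferon-stimulated response element, searched as GAAA, any 2 bases and GAAA, and in that of Eif2s2 an NRF1 motif, searched as GCGCA, any base and GCGC. Both matches lay inside the linked region, 18 and 30 bases after the RefSeq start.
Eif2ak2 (chr17:78882523-78882822, minus strand): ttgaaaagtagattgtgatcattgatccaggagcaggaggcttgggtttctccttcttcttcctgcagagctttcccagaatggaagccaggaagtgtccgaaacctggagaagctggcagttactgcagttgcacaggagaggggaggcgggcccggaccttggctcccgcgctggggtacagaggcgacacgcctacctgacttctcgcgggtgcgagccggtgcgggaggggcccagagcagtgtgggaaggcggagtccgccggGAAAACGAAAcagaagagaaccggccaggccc
Eif2s2 (chr2:154892857-154893156, minus strand): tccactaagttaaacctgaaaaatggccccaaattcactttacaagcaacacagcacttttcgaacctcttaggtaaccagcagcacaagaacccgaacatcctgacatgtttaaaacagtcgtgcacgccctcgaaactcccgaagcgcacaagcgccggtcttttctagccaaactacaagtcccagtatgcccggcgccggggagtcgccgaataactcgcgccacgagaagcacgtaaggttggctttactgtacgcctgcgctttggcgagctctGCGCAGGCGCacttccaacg
The interferon-stimulated element was found in 3 of the 71 windows (Eif2ak2, Eif3a and Qars), or 4.2%, against 2.6% of all open windows and 3.4% of all windows. The NRF1 motif was found in 13 windows, or 18.3%, against 13.8% of all open windows and 4.6% of all windows. Of these 13 windows, 3 belonged to Eif5a alone.

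Other promoter elements were counted in the same windows on both strands, so that a gene with several windows can count more than once. The E-box CACGTG was in 16 windows (22.5%), against 10.9% of all open windows, among them those of Eif4e, Eif4g1, Eif4a1, Eef2, Aars and Tars. The YY1 motif AAGATGGC was in 9 windows (12.7%), against 5.7% of open windows, and 4 of the 9 belonged to mitochondrial synthetase genes (Aars2, Wars2 and Yars2). The ETS motif CCGGAAG was in 21 windows (29.6%), against 22.6%, and the GC box GGGCGG in 50 (70.4%), against 73.1%. The CCAAT box was in 22 (31.0%), against 42.9%, with 0 of 7 windows of elongation factor genes and 7 of 13 of cytosolic synthetase genes. The TATA box TATAAA, searched at any position of the window, was in 7 (9.9%), against 4.8% of open windows and 13.6% of all windows. Of these 7 windows, 3 belonged to Aars2 and Tars2. The median GC content of the 71 windows was 60.7%, against 63.0% for all open windows and 52.7% for all windows, with a median of 23 CpG dinucleotides, against 24 and 7.

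**Figure D2:**
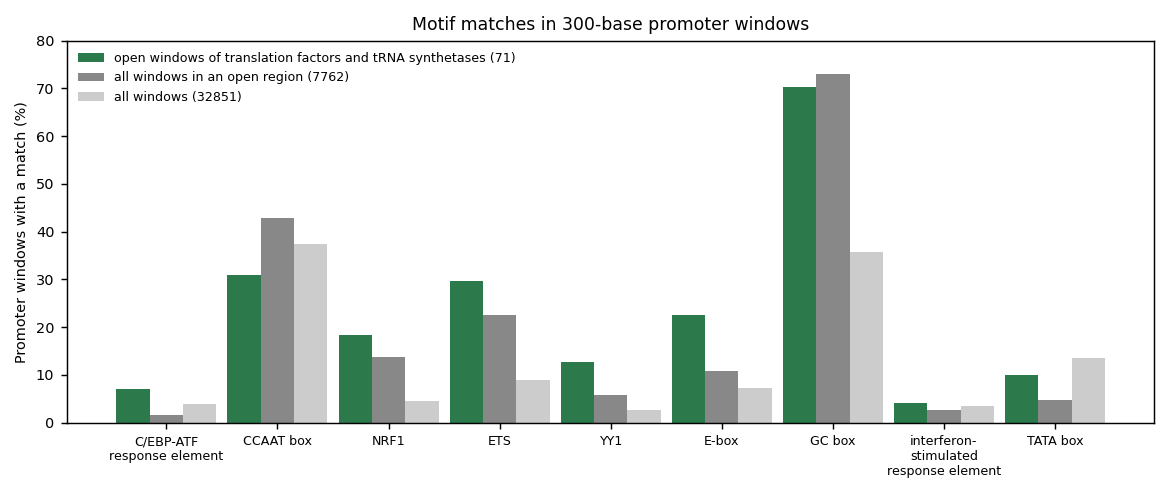
Share of promoter windows with at least 1 match to each motif (y axis, %). Bars show the 71 open windows of translation factor and synthetase genes, all 7762 windows that overlap any merged region and all 32851 windows. The C/EBP-ATF element, the YY1 motif, the E-box and the TATA box show the widest gaps between the first bars and the second in proportion, and the GC box is frequent in both.

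The libraries differed as a whole in height, which is the scaled coverage by tags at a peak and was averaged for each gene by the authors over its regions. A factor per library was applied before deposit, and its basis is not given. Among the 91 genes, heights of single regions were whole numbers in female 1. They moved in finer steps in female 2 and in the finest in the males, so the factor was lowest in the males. How far the lower heights of the males follow from that factor was not tested. The median height over all genes was 24.0 in male 1, 14.7 in male 2, 38 in female 1 and 30.2 in female 2. Male 2 stood apart: across all genes, which are not independent replicates, its Spearman correlation with the other libraries lay between 0.584 and 0.643, while the other 3 libraries correlated with each other between 0.822 and 0.85. Over the 91 genes the same ranges were 0.514 to 0.639 and 0.798 to 0.845. Of the listed adipocyte markers 6 of 10 were measured, Pparg, Cebpa, Cidec, Lipe, Retn and Cfd, while the other 4 were not analysed here, with summed heights of 123 and 82.6 in males and 239 and 210 in females. Markers of endothelium (2 of 5 measured), macrophages (1 of 6), mammary epithelium (1 of 7), skeletal muscle (1 of 5) and lymph node (1 of 4) were also lower in sum in both males. Both males lay below both females for 76.4% of all genes. Where 1 marker was measured, the sum is a single height. The macrophage marker, Cd68, is linked to 3 of the 4 regions of Eif4a1 and is no separate measure. In bulk tissue fewer cells of a type and less open chromatin per cell cannot be told apart, and the part of cell composition in the values below was not tested.

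The heights of the translation genes followed the libraries. Their median was 27.6 in male 1 and 16.9 in male 2, and 43.0 in female 1 and 32.1 in female 2. All 91 had a height above 0 in at least 2 libraries, as had all genes of the table. They stood somewhat above the typical gene: 58, 54, 57 and 48 of the 91 exceeded the median of all genes in male 1, male 2, female 1 and female 2, and their mean heights had a median percentile of 61.0. The highest single values were those of Tars in male 1 (47.4), Eif2s2 in male 2 (68.3), Cars2 in female 1 (85.0) and Eif4g2 in female 2 (72.3). The lowest were those of Yars2 in male 1 (12.02), Vars in male 2 (5.14), Eif2b1 in female 1 (14.0) and Eif3b in female 2 (10.7).

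**Figure D3:**
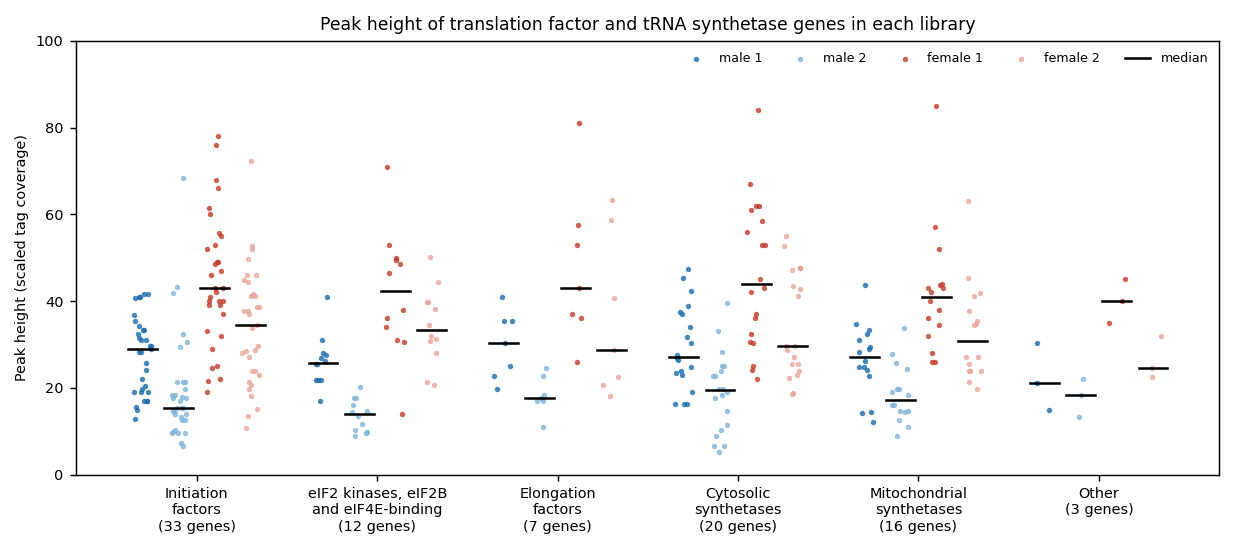
Peak height (y axis, scaled tag coverage) of each gene in male 1, male 2, female 1 and female 2, by role. Points are genes and black bars are medians over the genes of a role; the male bars lie below the female ones except in the elongation factors, where male 1 (30.4) lies above female 2 (28.8), with medians for all 91 genes of 27.6 and 16.9 in males and 43.0 and 32.1 in females.

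No translation gene passed the test between the sexes. On the log2(height + 9) scale, with limma fitted over all genes and Benjamini-Hochberg adjusted p under 0.05, 0 of the 91 were called lower in males and 0 higher, against 71 (0.592%) of the 11993 genes lower and 0 (0.0%) higher. The smallest adjusted p among them was 0.0935 with limma, and 23 had an unadjusted p under 0.05, all lower, as had 31.4% of all genes. Their median log2 difference, male minus female, was -0.63, equal to that of all genes to that precision and -0.01 relative to it. Their quartiles were -0.77 and -0.42, against -0.80 and -0.43 for all genes, and the median SE was 0.39. Both males were below both females for 68 of the 91 (74.7%), against 76.4% of all genes, and both males were above both females for 0, against 0.35% of all genes. The other 23 overlapped. In 89 of the 91 the difference was below 0. The count of calls depended on the males: without male 1, limma called 47 of the 91 lower, against 53.3% of all genes, and without male 2 it called 0, against 0 of all genes. With 1 male library left, the spread comes from the female pair and is assumed to hold for the male. Without male 2 the median difference was -0.37, and 61 of the 91 differences moved by over 1.5 times.

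**Figure D4:**
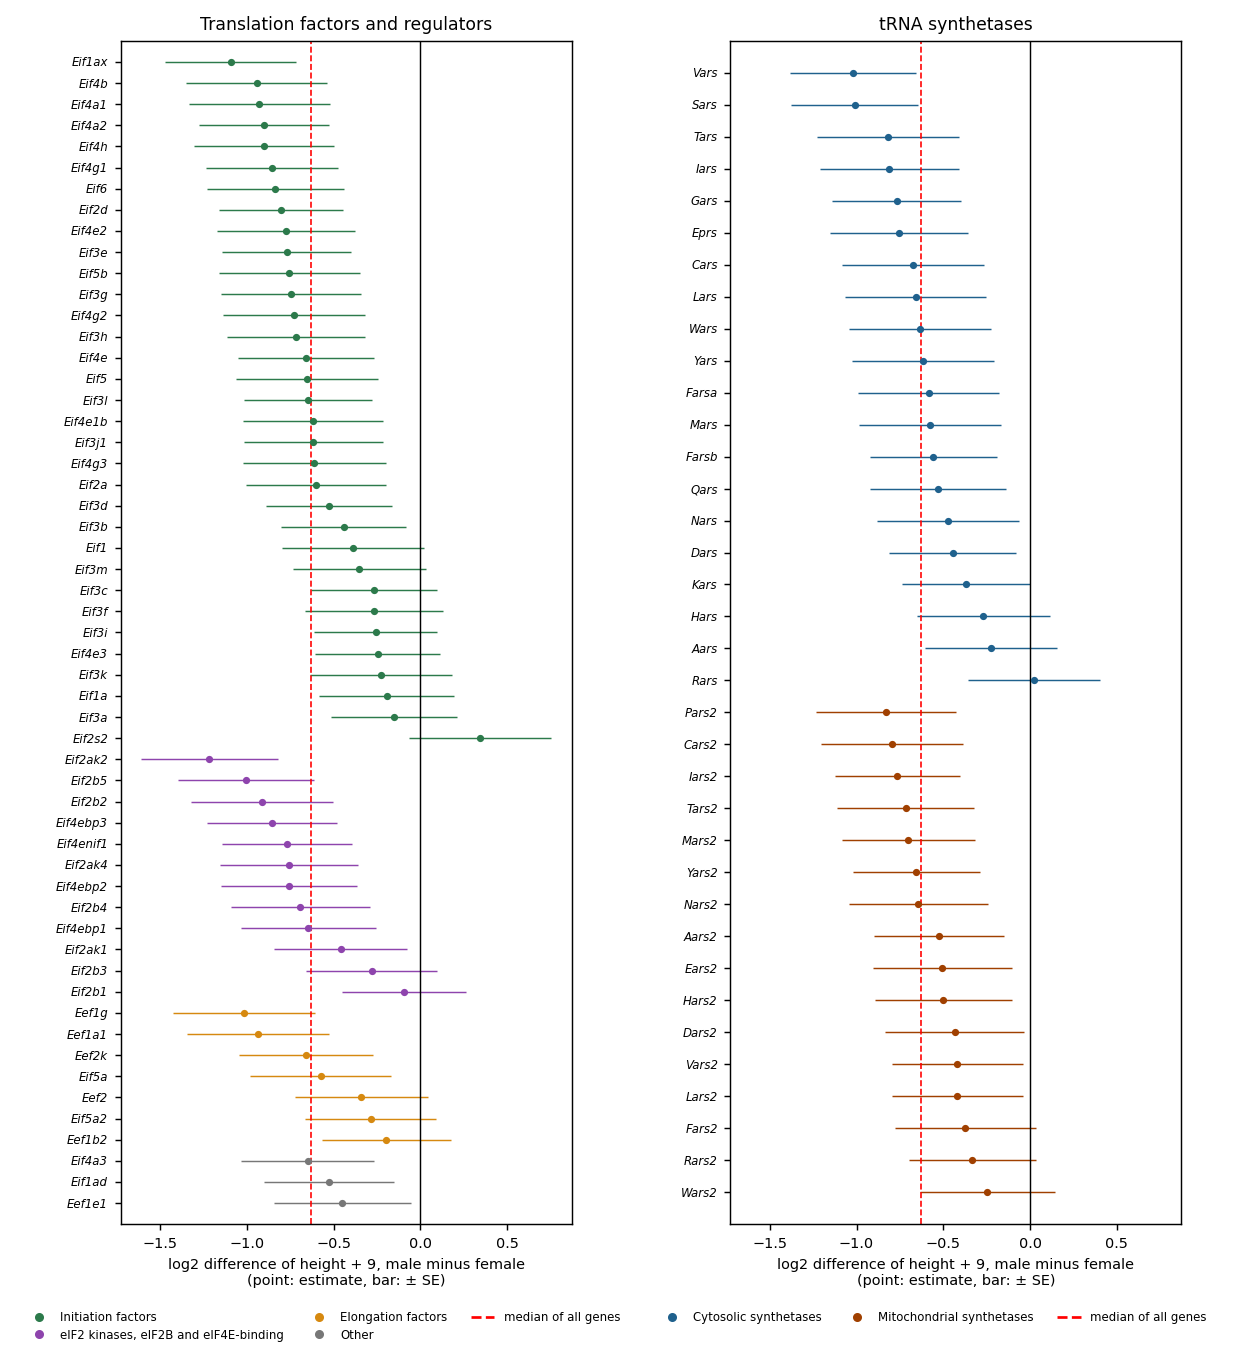
Log2 difference of height + 9, male minus female (x axis), of each of the 91 genes with its SE as a bar, by role, for translation factors on the left and synthetases on the right. The SE comes from genes of like height and does not show the spread of a gene's own libraries. The dashed red line is the median of all genes at -0.63; the points scatter on both sides of it, from -1.22 in Eif2ak2 to 0.34 in Eif2s2.

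Among the main roles, the regulators had the lowest median difference and the mitochondrial synthetases the highest. The medians relative to all genes were -0.13 for the 12 regulators, -0.02 for the 33 initiation factors, 0.03 for the 20 cytosolic synthetases, 0.05 for the 7 elongation factors and 0.11 for the 16 mitochondrial synthetases. No difference between roles was tested. Both males lay below both females for 10 of 12 regulators, 25 of 33 initiation factors, 14 of 20 cytosolic synthetases, 12 of 16 mitochondrial synthetases and 4 of 7 elongation factors, against 76.4% of all genes.

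The kinases of eIF2 were led by Eif2ak2, which encodes PKR, the kinase activated by double-stranded RNA. Its single region, at its start on chromosome 17 (mm10, 78882534 to 78882685), had heights of 25.4 and 8.81 in males and 53.0 and 44.4 in females. The males lay below the females, and a peak was called in both females and in neither male. The means were 17.1 ± 11.8 in males and 48.7 ± 6.09 in females (SD, n = 2 each). The log2 difference was -1.22, with an SE of 0.39 and an adjusted p of 0.0935 by limma. That SE follows genes of like height, not the SDs of this gene. Against the median of all genes the difference was -0.59. It was the lowest difference of the 91 genes and lower than that of all but 1.5% of the table. Its difference was -0.74 without male 2 (limma adjusted p = 0.538), and limma without trend, which called 3.47% of all genes lower, gave an adjusted p of 0.0415; over all alternatives the adjusted p by limma ranged from 0.000222 to 0.828. Eif2ak4, the kinase GCN2 that senses uncharged transfer RNA, had heights of 31.1 and 16.2 in males and 50 and 39.9 in females. Eif2ak1, the haem-regulated kinase, had 26.2 and 14.7 in males and 30.5 and 30.8 in females. The sexes did not overlap in either gene. The regions of Eif2ak1 lay 37674 and 38026 bp from its start, at the starts of Aimp2 and Pms2, which share them.

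eIF2B exchanges the nucleotide on eIF2, and its 5 subunit genes spread over most of the range of the 91. Eif2b5, the catalytic subunit, had heights of 27.9 and 9.91 in males and 48.5 and 39.9 in females, a log2 difference of -1.0. That average includes a region at the starts of Gm16618 and Dvl3, and the region at its own start had no peak in either male. Eif2b2 had 41.0 and 17.6 in males and 71 and 50.1 in females (-0.91). In both genes the males were below the females. Eif2b1, a subunit that senses phosphorylated eIF2, had 21.9 and 10.28 in males and 14.0 and 20.6 in females (-0.09). Here the sexes overlapped and male 1 was the highest library, with a difference of 0.25 without male 2. Eif2b3 also overlapped, with 21.9 and 17.6 in males and 31.0 and 21.4 in females. eIF2 itself was represented by Eif2s2, its beta subunit, whose region at its start on chromosome 2 (154892632 to 154893019) had heights of 31.1 and 68.3 in males and 43.0 and 27.9 in females. Male 2 was the highest library and male 1 lay between the females. The means were 49.7 ± 26.3 in males and 35.5 ± 10.6 in females (SD, n = 2 each), and the log2 difference of 0.34 (SE 0.41, limma adjusted p = 0.469) was -0.13 without male 2. In the table as a whole male 2 exceeded both females in 2.83% of genes, and among the 91 it did so in 2, Eif2s2 and Rars. For Rars no peak was called in male 2.

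The cap-binding complex eIF4F joins the cap-binding protein eIF4E, the scaffold eIF4G and the helicase eIF4A, with eIF4B and eIF4H as partners of the helicase. Genes of these names numbered 11, including the related Eif4e1b, Eif4e2, Eif4e3 and Eif4g2, so the group is wider than the complex. Of the 11, 10 had both males below both females, as had 76.4% of all genes. Their median difference was -0.77, or -0.15 relative to all genes. The only region of Eif4e1b lay 5341 bp from its start, at the start of Tspan17. Eif4b had heights of 29.0 and 19.8 in males and 76.0 and 38.6 in females (-0.94). Eif4a1 had 31.5 and 17.99 in males and 55.8 and 52.0 in females (-0.93), averaged over 4 regions that are linked also to neighbouring genes. Eif4g1 had 22.1 and 9.79 in males and 42.0 and 28.5 in females (-0.85). None of these differences passed the limma test over all genes. Eif4g2, which lacks the part of the scaffold that binds eIF4E, had the highest mean height of the initiation factors, 41.7 and 41.9 in males and 78.0 and 72.3 in females (-0.73, limma adjusted p = 0.182). Eif4g3, a further scaffold, had 36.8 and 32.3 in males and 66.0 and 49.7 in females (-0.61). That average includes a region 223664 bp from its start, at the start of Hp1bp3. The region at its own start had peaks only in male 2 (18.4) and female 1 (57.0). The males of Eif4g2 were nearly equal although male 2 was below male 1 in most of the 91 genes. Male 2 was above male 1 in 8 of the 91 (8.8%) and in 14.3% of all genes.

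Eif4e had heights of 28.3 and 14.0 in males and 40.0 and 34.5 in females (-0.66), near the value of the typical gene. Of the genes of its inhibitory binding proteins, Eif4ebp1 had 26.9 and 14.3 in males and 38 and 34.5 in females (-0.65). Eif4ebp2 had 27.6 and 13.6 in males and 49.5 and 31.2 in females (-0.76). Eif4ebp3 had 17.0 and 11.7 in males and 34.0 and 32.1 in females (-0.86). Its only region lay 6276 bp from its start, at the start of Sra1. In all 3 genes the males were below the females, and none passed the limma test. The single overlapping gene of the 11 was Eif4e3, a variant cap-binding protein, with 17.0 and 13.2 in males and 24.5 and 15.2 in females, and it was, with Eef1b2, one of 2 of the 91 genes with a peak called in both males and in neither female, against 0.5% of all genes. The male peaks of Eif4e3 lay in different regions, that of male 2 at its start and that of male 1 at 33939 bp.

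Eif1ax, on the X chromosome, encodes a factor for scanning to the start codon and had the lowest difference of the initiation factors. Its heights were 19.1 and 7.34 in males and 40.0 and 33.7 in females, giving a log2 difference of -1.09 with an SE of 0.38 and an adjusted p of 0.0974 by limma. Both males were below both females, and the difference without male 2 was -0.70. Eif5, which triggers hydrolysis of the nucleotide on eIF2, had a height of 41.0 and 29.4 in males and 68.0 and 52.6 in females (-0.65) and had peaks in all 4 libraries.

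eIF3 is the largest initiation complex, and 13 genes of its subunits were measured. They had a median difference of -0.44, or 0.19 relative to all genes, and 8 of 13 were lower in both males, against 76.4% of all genes. Eif3e had the lowest difference with 19.1 and 9.55 in males and 33.0 and 27.1 in females (-0.77). Eif3a, its largest subunit, had the highest with 19.8 and 14.7 in males and 22 and 18.1 in females (-0.15). The sexes overlapped in Eif3a, whose peak was called in male 2 only. Eif3b, a core subunit, was likewise called in male 2 only, with 14.8 and 12.5 in males and 39.0 and 10.7 in females. Eif3k shows how an average can join unlike regions. The region at its own start (chromosome 7, 28981782 to 28982107) had no peak in male 1 and a summit of 17.6 in male 2, against 45.0 and 41.9 in females. Its other region, at the start of Actn4 and 19414 bp from its own, had summits of 40.3 and 69.0 in males and 52.0 and 44.4 in females. The averages, 34.3 and 43.3 in males and 48.5 and 44.8 in females, therefore hold a neighbour's promoter.

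Elongation factor genes ranged from Eef1g to Eef1b2. Eef1g, a subunit of the exchange factor of eEF1A, had heights of 41.0 and 22.8 in males and 81.0 and 63.3 in females, from a region 1 bp from its start on chromosome 19 (8966832 to 8967199). The males again lay below the females (log2 difference -1.02, SE 0.41, limma adjusted p = 0.119). Eef1a1, which carries charged transfer RNA to the ribosome, had 35.3 and 16.9 in males and 53.0 and 58.8 in females (-0.94). Its main region, with its summit at -196 bp, had summits of 51.6 and 26.4 in males and 87.0 and 90.4 in females. Eef2, the translocase, had 25.1 and 17.6 in males and 37.0 and 22.6 in females (-0.34), in regions shared with Pias4. Its kinase Eef2k had 30.4 and 11.01 in males and 43.0 and 28.8 in females (-0.66). In both the sexes overlapped, since male 1 exceeded female 2, and without male 2 the difference of Eef2k was -0.17. Eif5a, the hypusine-containing factor, had 35.3 and 24.6 in males and 57.5 and 40.7 in females (-0.57), in regions shared with Gps2. Eef1b2 had 19.8 and 18.4 in males and 26 and 20.6 in females (-0.20), in a region shared with Ndufs1 and other genes. Eif5a2, a paralogue of Eif5a, had 22.6 and 16.9 in males and 36 and 18.1 in females (-0.29). Its males were below female 1, and male 1 was above female 2. The only region of Eif5a2 lay 24065 bp from its start, at the start of Rpl22l1, which shares it.

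Cytosolic synthetases ranged from Vars to Rars. Vars, for valine, had heights of 16.3 and 5.14 in males and 37 and 23.02 in females (log2 difference -1.02, SE 0.36, limma adjusted p = 0.0992), with a peak called in female 1 only. Sars, for serine, had 16.3 and 6.61 in males and 32.5 and 29.6 in females (-1.01, limma adjusted p = 0.104). In both the males were below the females, and without male 2 the differences were -0.60 and -0.66. Rars, for arginine, had 16.3 and 33.0 in males and 24.0 and 22.2 in females (0.02). Male 2 was the highest and male 1 the lowest library, but the region had a peak called only in male 1 and female 1. That region is shared with Wwc1, and without male 2 the difference was -0.35.

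The 5 genes with a C/EBP-ATF element had differences between -0.82 and -0.23. Tars had the highest mean height of the cytosolic synthetases, 47.4 and 24.97 in males and 84.0 and 55.1 in females (-0.82). Iars had 30.4 and 14.7 in males and 67.0 and 28.8 in females (-0.81), and Gars had 26.9 and 6.61 in males and 36.0 and 27.1 in females (-0.77). Both males were below both females in Tars and Gars, while male 1 exceeded female 2 in Iars. Without male 2 the differences were -0.45 for Tars, -0.44 for Iars and -0.17 for Gars, and without female 1 that of Iars was -0.31. Yars, in a region shared with S100pbp, had 45.2 and 19.8 in males and 61.0 and 43.6 in females (-0.62). Aars had 23.8 and 19.8 in males and 30.3 and 23.8 in females (-0.23). The region at the start of Aars, which holds both elements, had summits of 40.3 and 39.7 in males and 42.0 and 33.7 in females, so that both males lay between the females. The other regions averaged into Aars lay at -6159 bp and at the start of Exosc6, and each lacked a peak in at least 1 male.

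Eprs, the enzyme for glutamate and proline, had heights of 24.7 and 19.1 in males and 45.0 and 41.1 in females (-0.76). Wars, for tryptophan, had 33.9 and 24.97 in males and 53.0 and 47.7 in females (-0.63), in a region shared with Wdr25. The genes of the phenylalanine enzyme differed in height: Farsa, the alpha subunit, had 42.4 and 22.8 in males and 62.0 and 42.7 in females (-0.58), and Farsb, the beta subunit, had 19.1 and 10.28 in males and 25 and 25.5 in females (-0.56). The sexes did not overlap in these genes. Cars, for cysteine, had 38.9 and 23.9 in males and 62.0 and 47.3 in females (-0.67), and Nars, for asparagine, had 31.8 and 39.7 in males and 53.0 and 52.6 in females (-0.47). Both were lower in both males, and in Nars male 2 was above male 1. The average of Farsa includes a region at the start of Calr with summits of 58.0 and 32.3 in males and 110 and 62.5 in females.

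Of the mitochondrial synthetases, Pars2, for proline, had the lowest difference, with 32.5 and 16.2 in males and 57.0 and 41.1 in females (-0.83, limma adjusted p = 0.15). Cars2, for cysteine, had 43.6 and 33.8 in males and 85.0 and 63.0 in females (-0.79). Iars2, for isoleucine, had 14.5 and 8.81 in males and 26 and 25.5 in females (-0.76). The sexes did not overlap in any of these genes. The regions of Iars2 lay at 30729 bp and at -2791 bp, the latter at the start of Bpnt1. At the other end Wars2, for tryptophan, had 31.1 and 19.8 in males and 36.0 and 27.1 in females (-0.25), and Rars2, for arginine, had 22.6 and 11.01 in males and 26 and 19.7 in females (-0.33). Their sexes overlapped, as male 1 exceeded female 2. Fars2, for phenylalanine, had 34.6 and 27.9 in males and 44.0 and 41.9 in females (-0.37), without overlap. The region at the start of Cars2 was its weakest, with 28.3 in male 1 and no peak in male 2, against 43.0 in female 1 and no peak in female 2. The others lay at -5053 and -7309 bp, and all 3 are shared with Ing1. Of the genes with other roles, Eif4a3, a helicase of the exon junction complex, had heights of 14.8 and 22.03 in males and 45.0 and 24.7 in females (-0.65). Eif1ad had 21.2 and 13.2 in males and 35.0 and 22.6 in females (-0.53). Eef1e1, a scaffold of the complex of synthetases, had 30.4 and 18.4 in males and 40.0 and 32.1 in females (-0.45).

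Peak calls gave a similar picture to the heights. Peaks were called in 62 of the 91 genes in male 1 (68.1%) and 50 in male 2 (54.9%), and in 85 in female 1 (93.4%) and 71 in female 2 (78.0%). The shares of all genes were 61.2% and 49.1% in males and 89.7% and 76.7% in females. A peak in all 4 libraries was called for 38 of the 91 (41.8%), against 35.9% of all genes, and a peak in a single library for 9 (9.9%), against 19.8%. By role, the 38 comprised 16 initiation factors, 10 cytosolic and 7 mitochondrial synthetases, 3 elongation factors and 2 regulators. Peaks in both females and neither male were found for 15 genes (16.5%), against 11.7% of all genes. With intervals required to cover at least 50% of the merged region, 23 of the 91 (25.3%) had a peak in all 4 libraries, against 19.0% of all genes. A call depends on the depth and background of its library, and the depth is unknown here.

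**Figure D5:**
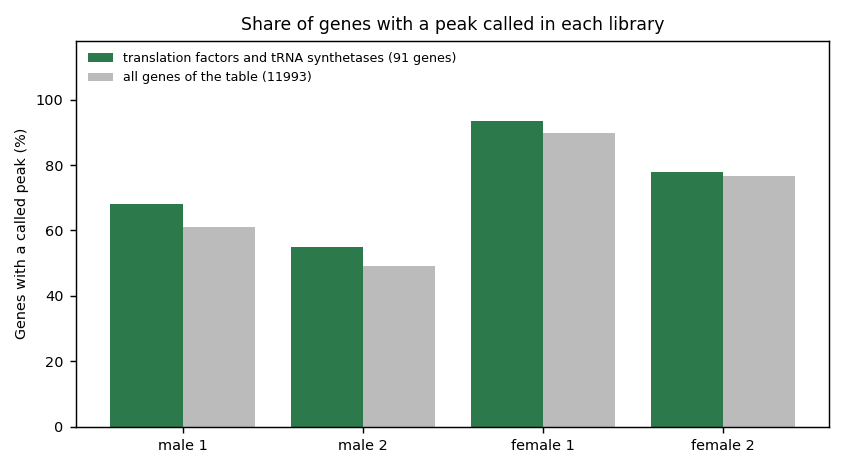
Share of genes with a called peak (y axis, %) in male 1, male 2, female 1 and female 2, for the 91 translation factor and synthetase genes and for all 11993 genes. The translation genes lie above all genes in each library, at 68.1 and 54.9% against 61.2 and 49.1% in males and at 93.4 and 78.0% against 89.7 and 76.7% in females.

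Neighbouring genes enter many of these values. The 91 genes were linked to 131 different regions, of which 90 lay at a start of the gene and 41 elsewhere. Peaks in all 4 libraries were called for 29 of the 90 (32.2%), against 28.4% of all start regions, and for 12 of the 41 (29.3%). Of the 41, 31 (75.6%) lay at the start of another gene, among them 11 of the 12 with peaks in all 4 libraries. Of the 10 at no start, 1 had peaks in all 4 libraries, against 5.8% of all 3182 linked regions at no start. Examples were the regions of Cars at Nap1l4, of Mars at Ddit3 and of Eif2b4 at Gtf3c2. The region of Mars at Ddit3, a target of ATF4, had summits of 38.9 and 32.3 in males and 60.0 and 51.0 in females. In all, 27 of the 91 genes averaged such a region and 30 (33.0%) shared all their regions with another gene, against 39.5% of all genes. Hars and Hars2, the cytosolic and mitochondrial histidine enzymes, were the only pair of the 91 with a region in common.

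Other genes of protein synthesis, taken from lists of known components, also gave no call: limma called 0 of the 6 measured termination and rescue genes, 0 of 10 for the synthetase complex and transfer RNA processing, 0 of 12 mitochondrial factors, 0 of 12 genes of the integrated stress response and 0 of 15 of mTOR signalling, against 0.592% of all genes. Their median differences relative to all genes were -0.01, 0.17, 0.19, 0.01 and 0.13. Both males were below both females for 5 of 6, 7 of 10, 6 of 12, 9 of 12 and 10 of 15, against 76.4% of all genes. Atf4 had the smallest p, with heights of 22.6 and 8.81 in males and 56.0 and 36.2 in females (log2 difference -1.19, limma adjusted p = 0.0941), in a region shared with Rps19bp1. Pdcd4, an inhibitor of eIF4A, had 35.3 and 12.5 in males and 61.0 and 48.5 in females (-1.04, limma adjusted p = 0.113). The males were the lower libraries in each. Tufm, the mitochondrial elongation factor, had 25.8 and 10.6 in males and 38.5 and 39.9 in females (-0.88). Trmt1, a transfer RNA methyltransferase, had 26.9 and 11.7 in males and 33.0 and 51.0 in females (-0.88), in a region shared with Lyl1. Mtfmt, which formylates the mitochondrial initiator, had 11.3 and 7.34 in males and 29.0 and 17.3 in females (-0.79).

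The differences were also computed with the libraries on a common level. With each library centred on its median over all genes, the median difference of the 91 was -0.02, and 20 of the 91 had both males below both females, against 21.7% of all genes. The single differences ranged from -0.60 in Eif2ak2 to 0.96 in Eif2s2, and that of Rars was 0.64. The differences of Aars (0.39), Eif2b1 (0.52), Eif3a (0.47) and Eef1b2 (0.42) were then also above 0. The adjusted p of Eif2ak2 by limma was 0.609. At an unadjusted p under 0.05 limma found 4 of the 91, against 8.02% of all genes. With 2 libraries against 2, an exact two-sided permutation test of a single height cannot give a p below 0.33, so heights are given by library.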

How the data were processed

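Nuclei of ground frozen tissue were tagged with Tn5 and the DNA amplified by PCR, per the labels' protocols. The submitters' processing notes name BWA, MACS2 2.1.0 and mm10; filters, duplicate removal, any Tn5 shift and read totals are not given in the sources used, so the depth behind a height is unknown. The deposited signal is the coverage height at peaks, averaged by the authors over the merged regions of each gene, per the file headers. Other deposited columns (peak flags, positions) are used as given. Every per-library column was mapped to a sample.

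Heights were taken as log2(height + 9), where 9 is the rounded 5th percentile of nonzero heights; this understates differences of low genes. With trend and no block, limma 3.58.1 (R 4.3.3) compared 2 male with 2 female libraries over all 11993 genes. It used Benjamini-Hochberg adjustment and a threshold of 0.05. A run on simulated data had equal spread in all genes and no shift between libraries. It therefore cannot show how the fit handles libraries that differ as a whole. With trend, the SE came almost wholly from genes of like height and does not measure the spread of a gene's own libraries. It was 0.41 both for Eif4g2, with a male SD of 0.106, and for Eif2s2, with a male SD of 26.3. Alternatives covered the pseudocount, low values, scaling, trend, a replicate block, region sets, peak and distance rules and each library left out. Python 3.11.15 and pandas 2.3.3 made the counts.

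The members and lists were chosen with earlier results of these data known; the interferon-stimulated element and the TATA box were added after the windows were seen. Genes were named by a rule: in each role the 3 lowest and 2 highest differences and the 3 highest mean heights, a set of 21 known genes (19 measured) and the 5 genes of the other lists with the smallest p. Eif3e, Eif3b, Eif3k, Eif4e3, Eif4ebp3, Yars, Mars, Eif2b4, Hars and Hars2 were singled out after their values were seen. Windows and gene IDs are from RefSeq, in which all 91 matched by ID; exons and introns were not used here.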

Additional observations from a re-analysis of the deposited data

How the results depend on the processing

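The 0 calls lower in males held with pseudocounts of 1 and 36, without the lowest 25% of heights, with both scalings and with 1 value per set of regions. limma without trend called 1, Eif2ak2 (3.47% of all genes). The replicate number as a block called 51 (57.7% of all genes); the labels give no meaning to the numbers and the deviations of same-numbered libraries correlated at 0.0166, so the block is not used. Leaving out each library, which leaves 1 library of a sex with its spread taken from the other sex, gave 0 to 47 calls lower, median differences of -0.84 to -0.37 and 69 to 88 genes lower in males. The 69 to 88 genes are those with every remaining male library below every remaining female library. That rule is easier to meet with 1 library of a sex left. These counts therefore cannot be compared with the 68 of the main fit. Shares of all genes in these settings are not given, so the counts do not set the 91 genes apart. Calls higher in males stayed at 0 in every setting. The median difference was -0.79 with a pseudocount of 1 and -0.37 with 36. It was -0.0165 with centred libraries and 0.0144 with quantile normalization. With centred libraries 20 of the 91 genes were lower in both males, against 21.7% of all genes. Relative to all genes it was 0.0519 with a pseudocount of 1. At 50% coverage 23 genes had peaks in all 4 libraries.

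Of 48 named genes, 18 had the other sign with centred libraries and 19 with quantile normalization. The values, centred and then quantile, were 0.39 and 0.39 for Aars, 0.42 and 0.39 for Eef1b2, 0.17 and 0.18 for Eef1e1, 0.28 and 0.27 for Eef2, 0.0923 and 0.0818 for Eif1ad, 0.16 and 0.15 for Eif2ak1, 0.52 and 0.48 for Eif2b1, 0.34 and 0.32 for Eif2b3, 0.47 and 0.44 for Eif3a, 0.0076 and 0.0148 for Eif4g3, 0.0434 and 0.0829 for Eif5a, 0.33 and 0.32 for Eif5a2, 0.25 and 0.26 for Fars2, 0.033 and 0.0881 for Farsa, 0.0607 and 0.0239 for Farsb, 0.15 and 0.11 for Nars, 0.28 and 0.26 for Rars2 and 0.37 and 0.38 for Wars2, and 0.0144 for Wars with quantile normalization only. With a library left out, Eif2b1 ranged from -0.44 to 0.25, Eif2s2 from -0.13 to 0.82, Rars from -0.35 to 0.39 and Eif5a2 from -0.65 to 0.0791. Of the 91 differences, 29, 61, 36 and 23 moved by over 1.5 times without male 1, male 2, female 1 and female 2. The causes were not tested. The limits are 2 libraries per sex, unknown depth, a scaling of unknown basis that differed between the libraries, and regions shared with neighbours.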
